A study of Homo sapiens with 151 samples.

Results

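The 10 genes described here form the core of the human circadian clock: BMAL1 (formerly ARNTL) and CLOCK, PER1 and PER2, CRY1 and CRY2, CIART, NR1D1 and NR1D2, and DBP. The rule that picks them goes by name and uses no measured value, and all 10 were found among the 20033 protein-coding genes of GENCODE 44 on the autosomes, X and Y. The data are ChIP-seq peak lists for DNA-associated proteins (DAPs) in HepG2, an established line from a human liver cancer, in which each DAP carried a FLAG tag and was pulled down with the same antibody against that tag. Of 151 samples, 127 gave a list and 24 were input libraries that were sequenced without a pulldown. The 121 lists of preferred status, 106 for transcription factors (TFs) and 15 for other DAPs (non-TF), entered the comparisons, and 6 non-preferred lists were kept apart. The cells had no treatment or time point in the labels, so the lists describe an unsynchronised state as far as the labels tell, and NPAS2 was the only DAP of the CLOCK and BMAL1 activator. Each DAP had 1 list, so no list has a replicate of its own and depth is unknown. The counts below are numbers of lists.

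The clock is a transcriptional feedback loop. CLOCK, or its paralog NPAS2, pairs with BMAL1 and binds E-boxes to switch on PER, CRY, REV-ERB (NR1D1 and NR1D2), CIART and PAR bZIP genes such as DBP; PER and CRY proteins then block the same activator, while REV-ERB proteins and the ROR receptors compete for elements that set the level of BMAL1. In liver this loop times much of metabolism, including bile acid, lipid and heme pathways.

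A promoter here is the sequence within 500 bp of any annotated transcription start site (TSS) of a gene, and a list counts once per gene however many peaks it holds there. Of the 10 clock genes, 9 had a promoter peak of at least 1 preferred list, against 72.9% of all protein-coding genes, and 9 had one at a TSS or in the gene body, against 82.2%. The promoters of 7 genes held peaks of at least 25% of the lists, which is 31 lists, against 42.1% of all genes. NR1D1 stood highest with 92 lists, followed by PER2 with 75, DBP with 65, NR1D2 with 57, CRY2 with 50, CLOCK with 45 and CRY1 with 40. PER1 had 20, BMAL1 had 13 and CIART had none. The median was 47.5 lists over the 10 genes and 22 over all protein-coding genes. The 9 bound promoters thus ranged from NR1D1, above 98.1% of all genes, to BMAL1, above 43.0%. With a single list per DAP there is no spread to set against the gap between neighbours in this order. The order did not follow the number of annotated start sites: NR1D1 has 1, with a window of 1001 bp, and BMAL1 has 23, with windows of 11243 bp in all.

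**Figure D1:**
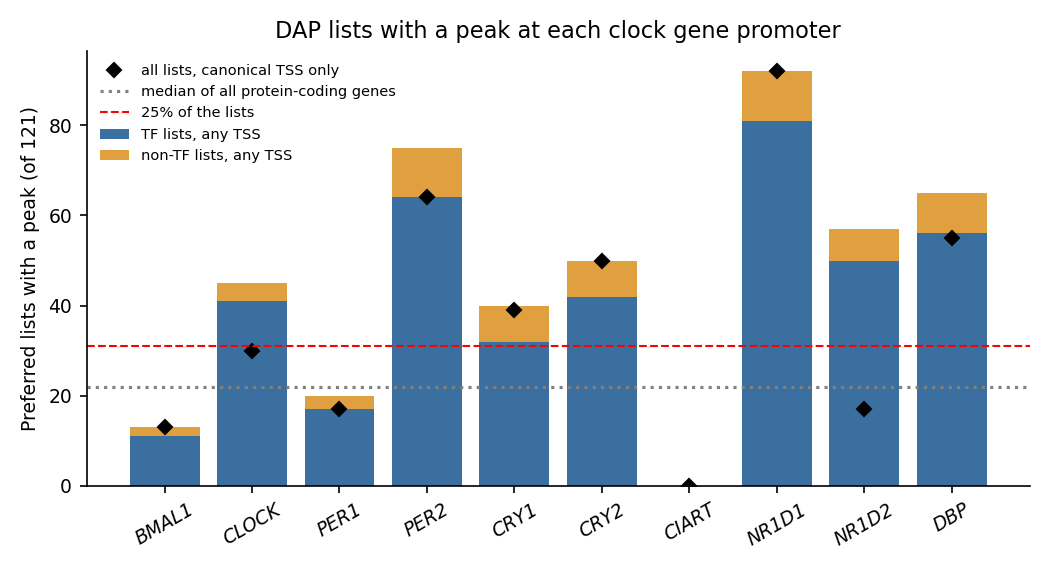
Number of preferred lists (of 121) with a peak within 500 bp of an annotated TSS of each clock gene, split into TF lists (blue) and non-TF lists (orange); diamonds count lists at the canonical TSS only, the dotted line is the median of all protein-coding genes (22 lists) and the dashed line is 25% of the lists (31). NR1D1 has the most lists (92) and CIART none, and the diamond of NR1D2 falls to 17 because most of its peaks lie near a start site farther into the gene.

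BMAL1 and CLOCK encode the bHLH-PAS activator of the loop. BMAL1 (chr11:13276652-13387266, plus strand, hg38) was the least bound gene with any peak. Its 13 promoter lists were KLF15, L3MBTL4, MGA, POU2F1, SALL1, SIX5, SMAD7, SRY, ZBTB12, ZFP91, ZMYM4, ZNF74 and ZNF827, and 6 more, BAZ2A, GLYR1, JRK, MEIS1, ZNF646 and ZNF865, had peaks only in the gene body. All 13 also had a peak at NR1D1, as did 92 of the 121 lists in all. The largest cluster of peaks, centred 358 bp before the canonical TSS (that of the Ensembl canonical transcript) and inside an intron of longer transcripts, held 10 lists, and an intronic cluster 20378 bp after the TSS held 9, of which 4 were shared. These peaks were mostly mid to low in their lists. Ranked by the authors' signal within its own list, the best promoter peak of the median list stood at 55.2% from the top, and only that of ZFP91, 465 of 41124, came near the first 1%.

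The BMAL1 promoter is where REV-ERB and ROR proteins are known to act, so it was searched for TAGGTCA on either strand. TAGGTCA is only a part of the ROR element, and the bases next to it were not part of the search. For short, a match of TAGGTCA is called a ROR element here, which does not show that the full element is present. A match lies 33 bp after the canonical TSS (chr11:13277820-13277826), within the first exon, and is shown with 10 bases on either side, in gene orientation and with the match in capitals:
BMAL1 ROR element: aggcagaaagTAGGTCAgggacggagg
Only 3 lists had a peak over it. TAGGTCA occurs in 4.59% of all 20033 canonical promoters and in those of 4 clock genes, BMAL1, CRY2, NR1D2 and DBP.

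CLOCK (chr4:55427903-55546909, minus strand) had 45 promoter lists. Those at 9 of the 10 clock promoters, MGA, POU2F1, SALL1, ZBTB12, ZFP91 and ZMYM4, recur at every bound gene and are not named again below. The others at CLOCK were BAZ2A, CAMTA1, E2F8, E4F1, FOXC1, GLYR1, L3MBTL4, MED12, MEIS2, NCOA1, NCOA2, NR1H2, PAX8, RCOR3, SALL2, SIX5, SMAD7, SRY, STAT5A, ZSCAN25, ZNF18, ZNF74, ZNF85, ZNF160, ZNF219, ZNF235, ZNF329, ZNF430, ZNF528, ZNF546, ZNF558, ZNF571, ZNF701, ZNF704, ZNF746, ZNF816, ZNF827, ZNF850 and ZNF875. ZFHX3 and ZNF865 had peaks in the gene body alone. The peaks fell into neighbouring clusters: 31 lists in the first intron 889 bp after the TSS, 23 lists 237 bp before it and 13 in the first exon. The intronic cluster lies near another annotated start site of CLOCK, 977 bp after the canonical TSS. The first 2 clusters shared 12 lists, which is 38.7% of the intronic and 52.2% of the upstream lists. A lncRNA on the other strand starts 203 bp upstream of CLOCK, within the promoter window. Promoter windows of BMAL1, PER2, CRY1 and CIART also hold the start of a lncRNA on the other strand. Relative to the canonical TSS these lncRNAs start at -387, -517, 251 and -383 bp in that order. Peaks in such a shared window were counted for the clock gene and cannot be assigned to either transcript. No E-box (CACGTG) lies in a CLOCK promoter window or under a peak of the gene, while an E'-box (CACGTT) 792 bp after the TSS lay under peaks of 29 lists.

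PER1 and PER2 encode the inhibitory period proteins, and their promoters differed widely in the number of lists. PER1 (chr17:8140472-8156506, minus strand) had 20: the 6 named above and BAZ2A, E2F8, GLYR1, HES4, MED12, NCOA2, SIX5, ZMYM2, ZNF160, ZNF219, ZNF251, ZNF430, ZNF746 and ZNF790. The lists AFF1, FOXC1, HES6, JRK, ZGLP1, ZNF74 and ZNF701 had peaks only in its body. PER2 (chr2:238244044-238290102, minus strand) had 75 and held all PER1 lists other than ZNF251, so 19 lists were at both, of the 20 at PER1 and the 75 at PER2 (25.3%). The PER2 lists beside the 6 were AFF1, BAZ2A, E2F7, E2F8, E4F1, EBF1, ELK3, ELK4, GLYR1, HES4, HES6, HIC2, HSF4, JRK, L3MBTL4, MED12, MEIS1, MEIS2, MLXIP, MZF1, NCOA1, NCOA2, NFIB, NPAS2, NR1H2, PBX3, PEG3, PHTF1, PRMT5, RCOR3, REV3L, SALL2, SIX5, SLC30A9, SMAD7, SRY, STAT5A, YBX3, ZFHX3, ZFP90, ZMYM2, ZSCAN12, ZSCAN25, ZNF18, ZNF74, ZNF85, ZNF160, ZNF219, ZNF222, ZNF275, ZNF329, ZNF430, ZNF544, ZNF546, ZNF552, ZNF558, ZNF571, ZNF593, ZNF646, ZNF669, ZNF701, ZNF704, ZNF746, ZNF790, ZNF816, ZNF827, ZNF865, ZNF875 and ZNF280C. KAT6A, TEAD2, TTF1 and ZNF140 had peaks in the PER2 body alone.

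At PER1 the peaks were spread over separate places rather than gathered at 1. There were 16 lists around the canonical TSS (74 bp before it), 11 lists 1415 bp before it, 8 lists 1925 bp before it and 12 lists 4239 bp before it, within the window of an upstream group of start sites. Of the 12, 9 were also among the 16. Each place holds an E-box or a cAMP response element (CRE, TGACGTCA), through which light and hormone signals are known to induce PER1. The matches are shown because they lie where the peaks lie, with the motif in capitals, named by the distance of its centre from the canonical TSS:
PER1 E-box 171 bp upstream, chr17:8152572-8152577: cacccaggtcCACGTGcgcccgtgtg
PER1 E-box 1337 bp upstream, chr17:8153738-8153743: aagcttaggcCACGTGacagtgaggg
PER1 CRE 1932 bp upstream, chr17:8154332-8154339: tcttccgcttTGACGTCActgctgtctc
PER1 E-box 4138 bp upstream, chr17:8156539-8156544: gcccctctctCACGTGtatctctccc
PER1 E-box 4322 bp upstream, chr17:8156723-8156728: agaccgccggCACGTGtaccctacag
Peaks over these sites came from 14, 11, 8, 10 and 11 lists in that order. An E-box 606 bp upstream lay under a peak of 1 list. A D-box, the site of PAR bZIP proteins such as DBP (TTATGTAA or TTATGCAA), lies 27 bp upstream of the PER1 TSS under peaks of 17 lists, 10 of them with a summit within 50 bp of it. PER1 peaks were mid to low in their lists, with a median rank of 50.8%.

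PER2 peaks were spread more widely. The main cluster, 450 bp before the canonical TSS, held 52 lists, and 22 lists had peaks 340 bp after the TSS, of which 9 were also in the main cluster. Inside the gene, 26 lists had peaks 25045 bp after the TSS, close to an internal start site at 25635 bp, and 23 lists 31960 bp after it. These intronic places shared 13 lists. The strongest peak for its list was that of POU2F1, an octamer-binding factor, which ranked 66 of 42562 at 275 bp before the TSS.

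NPAS2 can take the place of CLOCK as the partner of BMAL1. Its list holds 3728 peaks, and among the 10 clock genes it had a peak only at PER2. That is 1 gene of 10 at a promoter, against 10.8% of all protein-coding genes, and 1 of 10 at a TSS or in the body, against 13.8%. Both shares are close to the background of the list and are not a result about the clock genes. The PER2 peak runs over chr2:238288797-238289100 with its summit 339 bp before the canonical TSS, has a signal of 22.8 and ranks 2546 of 3728, within the weaker part of the list. A peak of 53 lists overlaps it, NPAS2 included, and 8 have a summit within 50 bp of the NPAS2 summit: L3MBTL4, MGA, NPAS2, PBX3, SMAD7, SRY, ZNF222 and ZNF430. Of the 13 lists that name the input library of NPAS2, 9 had a PER2 promoter peak, NPAS2 included in both counts. Of all 121 lists, 75 (62.0%) had one. The sequence around the summit is shown, from 5′ to 3′ along the gene, because it holds the D-box (in capitals) nearest to the NPAS2 summit and no CACGTG:
PER2 around the NPAS2 summit, chr2:238288827-238289026, minus strand: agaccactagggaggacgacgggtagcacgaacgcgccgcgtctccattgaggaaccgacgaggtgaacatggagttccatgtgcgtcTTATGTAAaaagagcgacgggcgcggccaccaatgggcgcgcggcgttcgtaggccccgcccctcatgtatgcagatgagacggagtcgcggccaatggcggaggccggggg
The D-box centre is 325 bp before the TSS and lay under peaks of 44 lists. The E'-box of PER2, a known BMAL1 and CLOCK element, lies 195 bp before the canonical TSS, in the first exon of a longer transcript and near the end of the NPAS2 peak, with 26 lists over it:
PER2 E'-box, chr2:238288802-238288807: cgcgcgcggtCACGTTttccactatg
The nearest E-box proper, 852 bp upstream, was outside the NPAS2 peak and under peaks of 13 lists.

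Elsewhere the nearest NPAS2 peak was at some distance from each gene. It was 7735 bp before the canonical TSS of NR1D1, 21109 bp before that of PER1, 28137 bp before that of NR1D2 and 46511 bp before that of CIART. At DBP it was 17950 bp after the TSS, beyond the end of the gene. For CLOCK, CRY1 and CRY2 the summits of these peaks were 200513, 319491 and 545272 bp after the TSS, past the end of the gene, and for BMAL1 1222040 bp. The gaps to these genes with their flanks were 80855, 216654, 508846 and 1111911 bp in that order.

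The E-box content of the NPAS2 list was measured to read these values. CACGTG lay within 50 bp of the summit in 302 of 3728 NPAS2 peaks, or 8.10%, the fifth highest share among the 121 lists, for which the median was 4.83%. In the 500 strongest NPAS2 peaks the share was 10.4%, against a median of 9.20% over lists, and NPAS2 ranked 47. For MGA and MLXIP, bHLH proteins that also read CACGTG with the partner MAX or MLX, the 500 strongest peaks held it in 37.8% and 35.6%, the highest shares of all lists. Among NPAS2-bound canonical promoters 26.2% held CACGTG, against 18.3% of all. A match of letters does not show which protein is at the site.

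The other bHLH lists had more peaks at clock promoters. MGA had a peak at 9 of the 10, all but CIART, against 55.5% of all genes. MLXIP, a glucose-responsive factor, had peaks at 4 (PER2, CRY2, NR1D1 and NR1D2), against 14.4%. HES4 had peaks at 7 (PER1, PER2, CRY1, CRY2, NR1D1, NR1D2 and DBP), against 36.8%, and HES6 at 6 (the same without PER1), against 30.1%; both are repressors of the HES family. Lists of these proteins are longer than that of NPAS2, with 45456 peaks for MGA, 5503 for MLXIP, 13641 for HES4 and 13606 for HES6.

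CRY1 and CRY2 encode cryptochromes, the stronger inhibitors of CLOCK and BMAL1. CRY1 (chr12:106991364-107093549, minus strand) had 40 promoter lists and CRY2 (chr11:45847118-45883248, plus strand) had 50, with 27 lists at both, 67.5% of the CRY1 lists and 54.0% of the CRY2 lists. The CRY1 lists beside the 6 were AFF1, E2F8, FOXC1, GLYR1, HES4, HES6, HSF4, JRK, KAT6A, MEIS2, NCOA1, PHTF1, PRMT5, RCOR3, SALL2, SMAD7, SRY, STAT5A, ZIM2, ZNF18, ZNF74, ZNF160, ZNF219, ZNF275, ZNF329, ZNF546, ZNF593, ZNF701, ZNF704, ZNF790, ZNF816, ZNF827, ZNF879 and ZNF280C. Those at CRY2 were AFF1, BAZ2A, E2F8, E4F1, ELK3, FOXC1, GLYR1, HES4, HES6, HIC2, HSF4, JRK, KAT6A, KLF15, L3MBTL4, MED12, MEIS2, MLXIP, NFIB, PRMT5, SALL2, SIX5, SLC30A9, SMAD7, TEAD2, ZGLP1, ZMYM2, ZSCAN12, ZSCAN25, ZNF18, ZNF74, ZNF235, ZNF275, ZNF430, ZNF529, ZNF546, ZNF552, ZNF571, ZNF701, ZNF746, ZNF747, ZNF790, ZNF816 and ZNF827, with ZNF865 in the body alone. In contrast to PER1 and PER2, each gene had a compact promoter: 37 lists fell in a cluster 183 bp before the CRY1 TSS and 49 in a cluster over the first exon of CRY2. The lists of highest rank were those of MGA at both genes, 1680 and 2716 of 45456. A match of a clock motif was present at either start site, and it is shown because most lists lay over it:
CRY1 E'-box 87 bp upstream, chr12:107093633-107093638: acacttcagaAACGTGaggtgccggt
CRY2 E'-box 185 bp upstream, chr11:45847287-45847292: acatggtaggAACGTGagggggcggg
CRY2 ROR element 62 bp upstream, chr11:45847410-45847416: tgcggcgtcaTAGGTCActgggcgggc
The capitals mark CACGTT, read here as AACGTG from the other strand, or TAGGTCA. Peaks over them came from 32, 39 and 43 lists, but summits within 50 bp from 3, 24 and 3, so of these only the CRY2 E'-box stood close to where many summits were. CACGTT occurs in 17.2% of all canonical promoters, and in 5 of the clock genes. An enhancer with ROR elements is known in the first intron of mouse Cry1. In human CRY1 no TAGGTCA lay in a promoter window or under a peak.

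CIART, also called CHRONO, encodes a repressor that binds BMAL1. Its promoter holds more E-boxes than that of any other clock gene here, and no list had a peak there. The gene (chr1:150282543-150287093, plus strand) has 5 CACGTG sites within 500 bp of its canonical TSS, at 494, 126, 68 and 54 bp before it and 163 bp after it. CACGTG is found in 18.3% of all canonical promoters and in 38.3% of genes when every TSS window is counted. The stretch upstream of the start is shown with its 3 sites in capitals, 2 of them 14 bp apart:
CIART upstream, chr1:150282354-150282542, plus strand: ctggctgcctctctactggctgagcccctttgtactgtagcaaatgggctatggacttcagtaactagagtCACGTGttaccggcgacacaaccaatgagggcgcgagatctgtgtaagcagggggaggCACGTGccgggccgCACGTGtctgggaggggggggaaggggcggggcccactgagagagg
None of the 121 preferred and none of the 6 non-preferred lists had a peak at a CIART TSS, and no preferred list had one in the gene body. The nearest peak of any preferred list was a ZBTB12 peak with its summit 2032 bp before the TSS. Its neighbours were not devoid of peaks: 37 lists had a summit from 11097 to 11711 bp after the CIART TSS, where the MRPS21 gene starts at 11307 bp, and 27 had one in the 1000 bp bin that holds the start of APH1A, 13538 bp before CIART. The CIART promoter had the lowest G and C content of the 10, 59.3%, while the others ran from 60.2% at NR1D1, the gene with the most lists, to 74.3% at NR1D2. Its ratio of observed to expected CpG was 0.661, above 0.619 at NR1D1 and 0.613 at PER1 and below the rest, which reached 1.07 at PER2. The part of base composition in the missing peaks was not tested. Whether CIART chromatin is open or the gene is transcribed in these cells was not analysed here.

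NR1D1 and NR1D2 encode REV-ERB alpha and beta, heme-binding nuclear receptors that repress BMAL1. NR1D1 (chr17:40092793-40100589, minus strand) had a promoter peak of 92 lists and a peak at its TSS or in its body of 106. The 29 lists without a promoter peak were CENPX, E2F7, FAM200B, FOSL1, GLMP, HMGN3, KAT6A, LHX6, MZF1, NPAS2, PRDM4, REV3L, SCMH1, TEAD2, ZBTB22, ZIM2, ZSCAN25, ZUP1, ZNF140, ZNF334, ZNF439, ZNF593, ZNF646, ZNF688, ZNF783, ZNF816, ZNF850, ZNF853 and ZNF280C. Of these, 14 had a peak in the gene body: E2F7, FOSL1, KAT6A, LHX6, MZF1, PRDM4, REV3L, TEAD2, ZIM2, ZSCAN25, ZNF593, ZNF816, ZNF850 and ZNF280C. NR1D1 was the only clock gene with more than 1 place that held at least 25% of the lists. It had 3: an upstream region of 860 bp (chr17:40100599-40101458) with 89 lists, an intronic region centred 1216 bp after the TSS with 77, and another intronic region 2266 bp after it (chr17:40098052-40098593) with 67. In all, 48 lists had a peak at each of the 3 and 102 at any of them. The upstream and first intronic regions shared 64 lists, or 83.1% of those at the intronic region.

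The NR1D1 peaks were also among the strongest of their lists. The best promoter peak of the median list ranked at 4.23% from the top, and 13 lists had it within the first 1%: MGA (47 of 45456), FOXC1 (61 of 20120), ZNF701 (62 of 18807), HSF4 (46 of 13620), ZNF222 (25 of 6129), NCOA1 (47 of 11103), ZNF746, ZNF74, ZNF704, ZNF747, SALL2, ZNF219 and STAT5A. Over the 11871 protein-coding genes with at least 10 lists, the median of such medians was 39.6%, and 0.539% of genes had a lower one than NR1D1. The other clock genes lay between 26.8% for DBP and 55.2% for BMAL1. Outside NR1D1, only DBP (ZFP91 and MGA) and PER2 (POU2F1) had promoter peaks in the first 1% of a list. Among only the 500 strongest peaks of each list, NR1D1 was still bound in 45 lists, while DBP was in 6, PER2 in 4, CRY2 in 2, BMAL1 in 1 and the rest in none. Under that filter 1.38% of all genes reached 31 lists. The median rank was 3.99% in the upstream region, 10.8% in the first intronic region and 19.4% in the second, over the 87, 77 and 67 lists whose peak there touched the promoter or the gene.

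**Figure D2:**
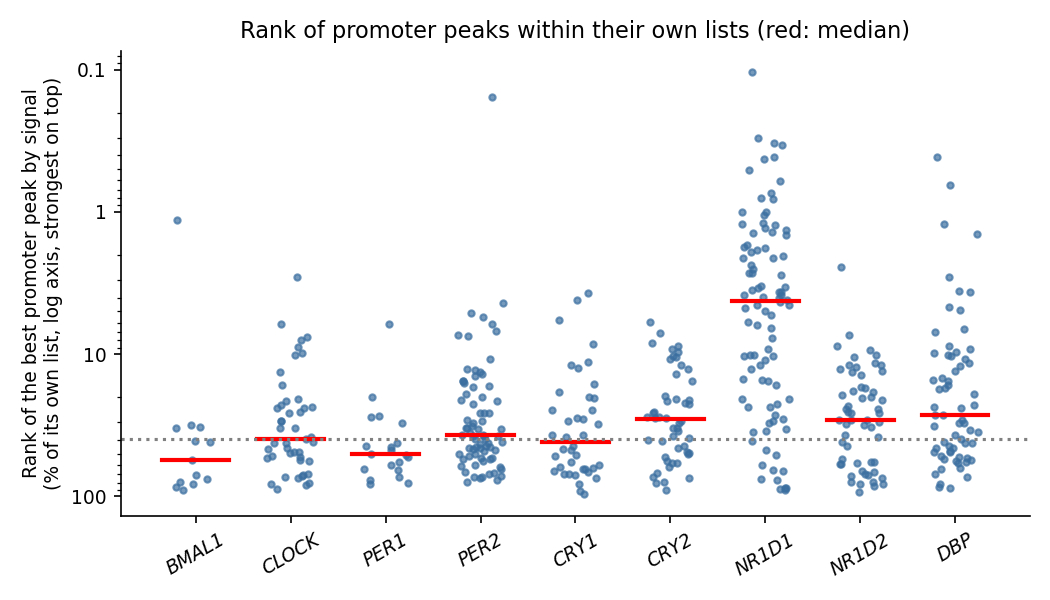
Rank of the best promoter peak of each list within that list, by the authors' signal, in percent (log axis, strongest on top); each point is a list, red bars are medians, sideways scatter only separates points, and the dotted line is the median over genes with at least 10 lists (39.6%). NR1D1 stands apart with a median of 4.23%, and CIART is absent because it had no peak.

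Sequences under the upstream and the second intronic region of NR1D1 are shown because they hold matches of clock motifs close to many summits. In the upstream stretch, 70 lists had a summit. Its capitals mark an E'-box read from the other strand, 166 bp before the TSS, with 76 lists over it and 35 summits within 50 bp:
NR1D1 upstream, chr17:40100590-40100789, minus strand: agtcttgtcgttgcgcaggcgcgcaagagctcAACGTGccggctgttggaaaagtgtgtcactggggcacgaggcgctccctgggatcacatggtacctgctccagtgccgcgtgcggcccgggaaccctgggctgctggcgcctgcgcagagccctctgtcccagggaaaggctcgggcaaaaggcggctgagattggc
Farther upstream an E-box and an E'-box lie 13 bp apart, 462 and 449 bp before the TSS, with 51 and 52 lists over them. A D-box 1220 bp after the TSS, in the first intronic region, had 66 lists over it and 27 summits near it. The same region holds E-boxes 1428 and 1443 bp after the TSS, 15 bp apart. Each had 72 lists over it, and 65 and 60 lists had a summit within 50 bp. Another E-box there, at 1147 bp, had 52 lists over it and 25 with a summit within 50 bp. The second intronic region holds ROR elements, of which that 2283 bp after the TSS was under peaks of 66 lists with 42 summits within 50 bp:
NR1D1 intronic ROR element, chr17:40098239-40098389, minus strand: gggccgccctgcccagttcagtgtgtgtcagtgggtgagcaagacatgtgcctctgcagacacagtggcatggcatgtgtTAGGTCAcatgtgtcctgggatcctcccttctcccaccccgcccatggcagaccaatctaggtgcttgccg
Neither stretch overlaps an annotated exon of any gene. NPAS2 had no peak at either.

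**Figure D3:**
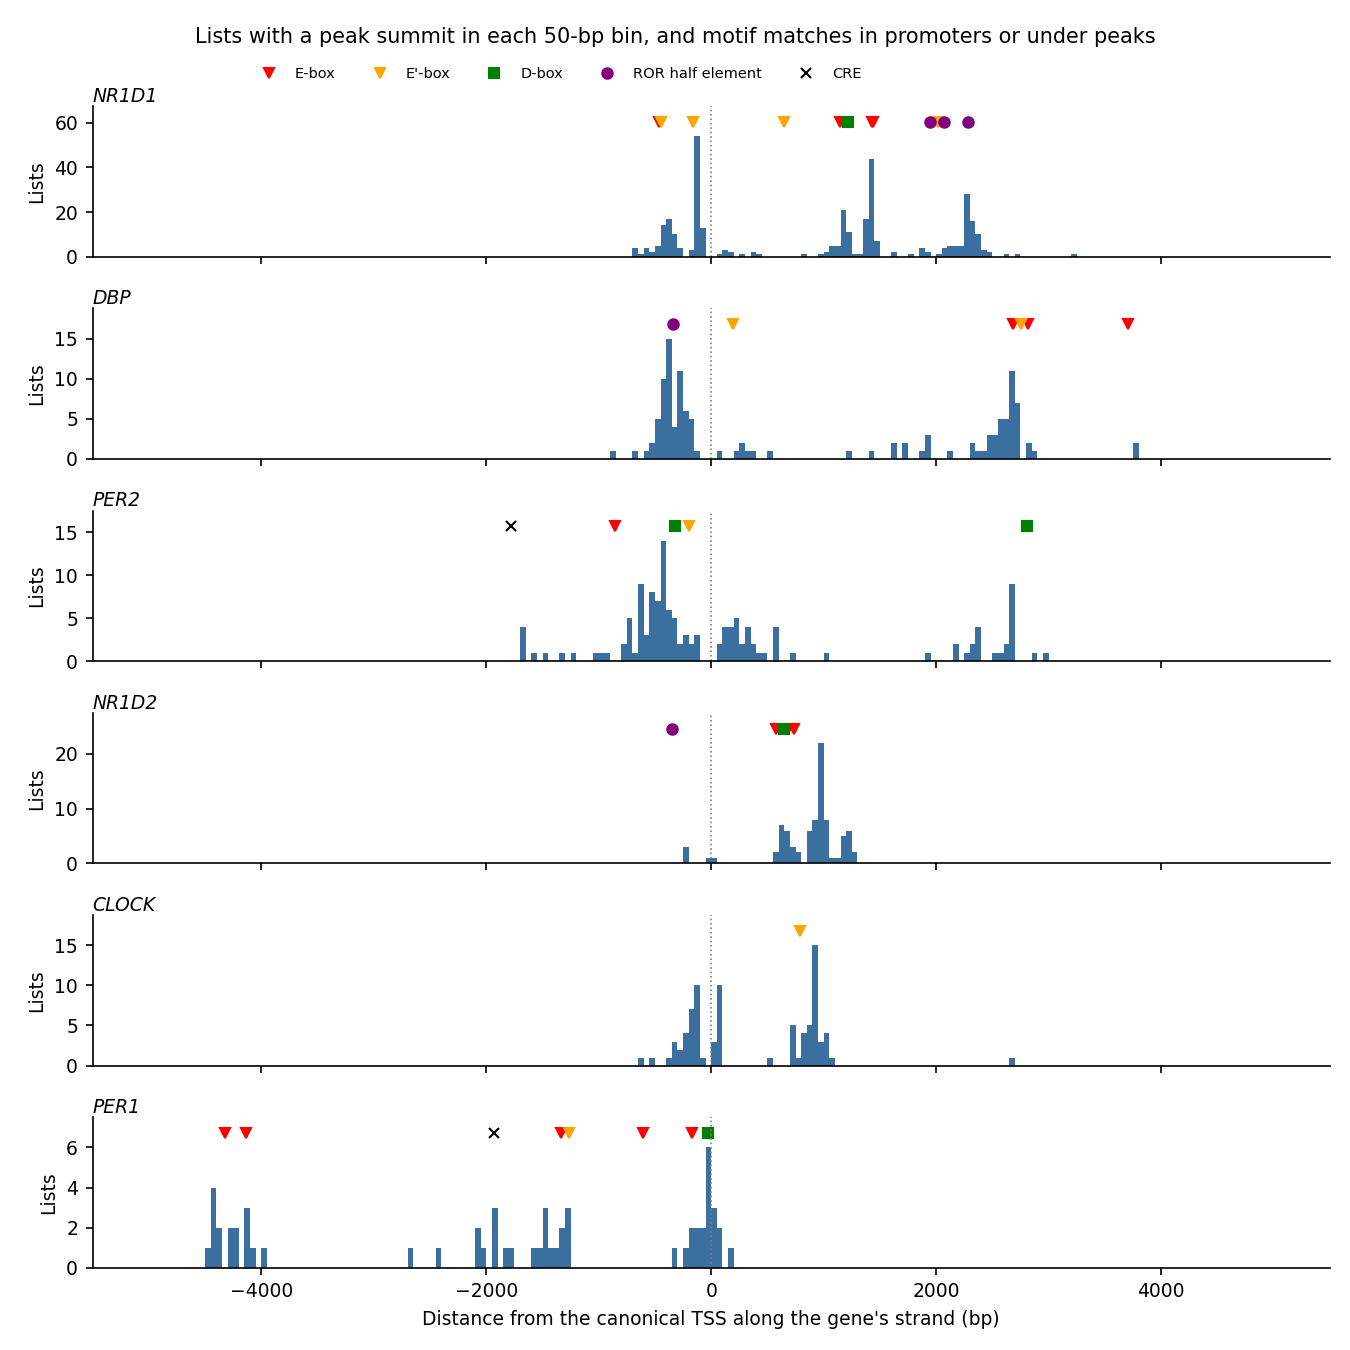
Number of preferred lists with a peak summit in each 50-bp bin, from 5000 bp before to 5000 bp after the canonical TSS of 6 clock genes; symbols above the bars mark the motif matches in promoter windows or under peaks. At NR1D1 the summits gather in places that hold an E'-box, E-boxes (1428 and 1443 bp) with a D-box (1220 bp), and a ROR element (TAGGTCA, 2283 bp). Summits within 50 bp came from 65 and 60 lists at these E-boxes and from 27 at the D-box. At PER1 fewer lists are spread over 4 places.

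NR1D2 (chr3:23945286-23980617, plus strand) had 57 promoter lists, of which 51 were also at NR1D1, 89.5% of the NR1D2 lists. Beside the 6 they were AFF1, CENPBD1P, E2F8, E4F1, FOXC1, GLMP, GLYR1, HES4, HES6, HMGN3, HSF4, KLF15, MED12, MEIS1, MEIS2, MLXIP, MZF1, NCOA2, NFIB, PAX8, PHTF1, RCOR3, SALL2, SIX5, SMAD7, SP110, SRY, STAT5A, ZMYM2, ZNF18, ZNF74, ZNF219, ZNF222, ZNF235, ZNF275, ZNF284, ZNF329, ZNF430, ZNF528, ZNF546, ZNF558, ZNF571, ZNF704, ZNF746, ZNF747, ZNF790, ZNF816, ZNF827, ZNF850, ZNF879 and ZNF280C. Only 17 lists had a peak within 500 bp of its canonical TSS. Its main region was centred 922 bp after it (chr3:23945815-23946601) and held 56 lists. It lies at later start sites of NR1D2. A start site of NKIRAS1, a gene on the other strand that shares 1306 bp with NR1D2, is within the same promoter window, and peaks of the 2 genes cannot be told apart there. The stretch at the start of this region, in an intron, carries 3 E-boxes and, between the first and the second of them, a D-box read from the other strand (TTACATAA), all in capitals:
NR1D2 intronic E-boxes, chr3:23945846-23946046, plus strand: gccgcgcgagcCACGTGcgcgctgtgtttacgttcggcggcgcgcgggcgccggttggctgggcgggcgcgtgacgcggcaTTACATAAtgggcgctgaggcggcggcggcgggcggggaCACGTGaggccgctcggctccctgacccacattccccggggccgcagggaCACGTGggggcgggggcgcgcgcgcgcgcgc
From 5′ to 3′, the E-boxes had 18, 32 and 44 lists over them and the D-box 27. The main summit cluster is farther on, and only 5, 10 and 5 lists had a summit within 50 bp of an E-box.

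DBP encodes a PAR bZIP activator whose RNA is a strong output of the clock. The gene (chr19:48630030-48637379, minus strand) had 65 promoter lists, 58 of them shared with NR1D1. Beside the 6 they were AFF1, CENPBD1P, E2F8, E4F1, EBF1, FOXC1, GLYR1, HES4, HES6, HIC2, HSF4, JRK, KLF15, MED12, MEIS1, MEIS2, NCOA1, NCOA2, RCOR3, REV3L, SALL2, SIX5, SLC30A9, SMAD7, SRY, STAT5A, THAP1, TTF1, ZBTB47, ZIM2, ZMYM2, ZSCAN25, ZNF18, ZNF74, ZNF85, ZNF140, ZNF160, ZNF219, ZNF222, ZNF430, ZNF528, ZNF529, ZNF544, ZNF546, ZNF552, ZNF558, ZNF559, ZNF571, ZNF593, ZNF701, ZNF704, ZNF746, ZNF747, ZNF790, ZNF816, ZNF827, ZNF850, ZNF875 and ZNF879, and L3MBTL4 and ZNF235 had peaks in the body alone. Its peaks lay at 2 promoters. The region 363 bp before the canonical TSS (chr19:48637458-48638026) held 50 lists, and a region at the start sites farther into the gene, 2559 bp after it (chr19:48634513-48635126), held 30. They shared 19 lists, which is 38.0% of the former and 63.3% of the latter. ZFP91 had a peak of rank 216 of 41124 at the upstream promoter and one of rank 170 at the start sites farther into the gene. The centre of the latter peak falls outside the region of 30 lists, which does not count ZFP91. The matches of clock motifs at each are shown for comparison with NR1D1, in capitals:
DBP ROR element 337 bp upstream, chr19:48637713-48637719: tgggcaaatgTAGGTCAgtgtcccgcc
DBP E-box 2680 bp downstream, chr19:48634696-48634701: attcctgcgcCACGTGagtcctccca
DBP E-box 2815 bp downstream, chr19:48634561-48634566: caggcgtcagCACGTGactcggccct
The ROR element was under peaks of 50 lists, and the E-boxes under peaks of 29 and 26, of which 21 and 2 had a summit within 50 bp. No CACGTG lies within 500 bp of the canonical TSS.

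Across the 5 motifs, clock promoters were set against all promoters. At the canonical TSS, E-boxes were present in 3 of the 10 (PER1, CIART and NR1D1), against 18.3% of genes, and over every TSS window in 6, against 38.3%. For the D-box these were 2 genes against 3.42%, and 3 against 18.3%. For the CRE they were 0 against 3.51%, and 1 (PER2) against 5.26%. E'-boxes were in 8 of 10 genes over all windows, against 41.2%, and the ROR element in 5, against 4004 of the 20033 genes. These are counts over 10 genes chosen for their place in the clock, and no test was run on them.

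Nuclear receptors and their coactivators were compared because REV-ERB and ROR genes are linked to receptor signalling. NR1H2, the oxysterol receptor LXR beta, had promoter peaks at 3 clock genes (CLOCK, PER2 and NR1D1), against 16.2% of all genes. The steroid receptor coactivators NCOA1 and NCOA2 had peaks at 5 (CLOCK, PER2, CRY1, NR1D1 and DBP) and 6 (CLOCK, PER1, PER2, NR1D1, NR1D2 and DBP), against 22.7% and 33.1%. TRIM24, a coregulator of receptors, had 1, at NR1D1, against 3.51%. At NR1D1, which holds 76.0% of all lists, all 4 were present. The NCOA1 peak there ranked 47 of 11103, and NCOA1 was among 13 lists with a promoter peak in their first 1%.

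How many clock promoters a list had followed its length. Over 121 lists, Pearson's r between the number of clock promoters and the log10 number of peaks was 0.826 and Spearman's rho 0.862, given as a description since lists share cells, antibody and input libraries. The 6 lists at 9 promoters hold 41124 to 61748 peaks and are the longest of all. The 13 lists with none hold 195 to 8680 peaks and are CENPX, FAM200B, FOSL1, LHX6, PRDM4, SCMH1, ZBTB22, ZUP1, ZNF334, ZNF439, ZNF688, ZNF783 and ZNF853. They include the 5 shortest of all, SCMH1, CENPX, ZBTB22, ZNF853 and ZNF439, with 195 to 555 peaks. Lists with a peak were also longer at each gene. At BMAL1 the median was 29489 peaks for lists with a peak and 7491.5 for lists without, and at CLOCK it was 17173 and 4564. Of the 1210 combinations of a clock gene and a list, 457 or 37.8% had a peak, against 22.7% over all protein-coding genes with the same lists, and 99 lists were above their own rate over all genes and 22 below. Grouped by the input library named in the labels, the share for clock genes was above that for all genes in 23 of 24 groups, the exception being a group of 1 list. Of the 121 lists, 110 name 1 input library, and the rest were counted in more than 1 group. All lists and groups were scored at the same clock promoters. The counts of lists and of groups above the rate over all genes are therefore not independent and are not replicates of each other.

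**Figure D4:**
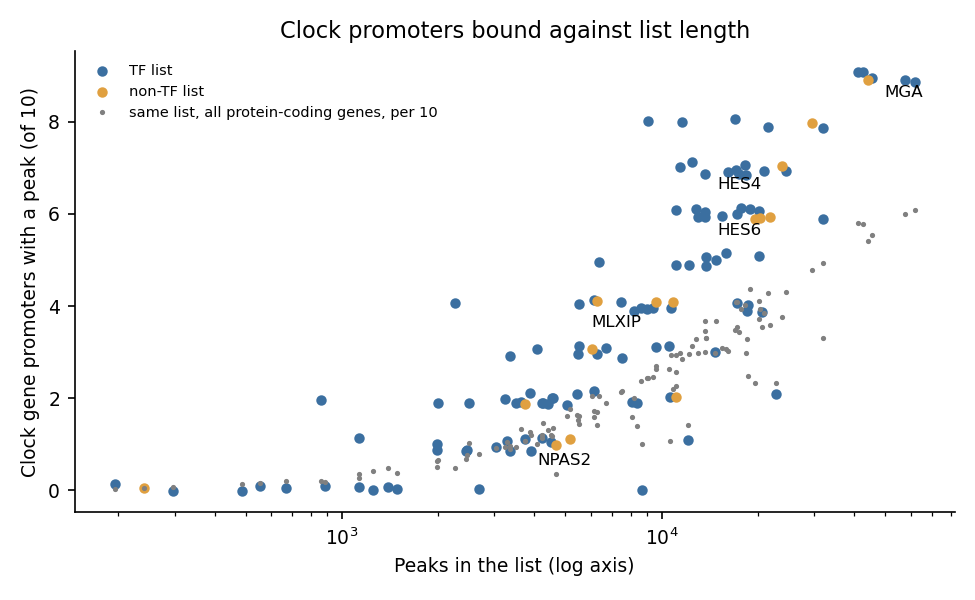
Number of clock promoters with a peak (of 10) against the number of peaks in the list (log axis) for TF lists (blue) and non-TF lists (orange), with points shifted slightly up or down to part them; grey dots give the same list's rate over all protein-coding genes, scaled to 10. Long lists such as MGA are at 9 promoters, NPAS2 (3728 peaks) is at 1 with a grey dot near it, and most points lie above their grey dots.

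NR1D1 holds 76.0% of all lists, which sets the level for overlaps with it. All 20 PER1 lists and all 13 BMAL1 lists had a peak at NR1D1, and so did 42 of the 45 at CLOCK, 46 of the 50 at CRY2 and 66 of the 75 at PER2. Overlaps between other genes are likewise read beside the share of all lists at the gene that holds them. PER2, with 62.0% of all lists, held 12 of the 13 BMAL1 lists and 19 of the 20 PER1 lists. PER1, with 16.5%, held 7 of the 13 BMAL1 lists (53.8%). CRY1, with 33.1%, held 12 of the 20 PER1 lists, and CRY2, with 41.3%, held 28 of the 45 CLOCK lists (62.2%). The most alike pair by shared over combined lists (Jaccard index) was PER2 and NR1D1 at 0.653, and these are the 2 clock genes with the most lists. An index of 0.5 was reached by 3871 genes for NR1D1, 4144 for PER2, 22 for BMAL1 and 5 for PER1. The gene more than 1 Mb away with the most similar lists was sought among all protein-coding genes. Nearly all of these lie outside the clock, so a match there is not a result about the clock genes. For NR1D1 it was C17orf100 and MED31, which tie at 0.833, for PER2 SCAF11 at 0.745 and for DBP ZSCAN30 and ENSG00000260537 at 0.732. For CLOCK it was ETV3 at 0.672, for NR1D2 GGT7 at 0.649 and for CRY2 P4HA1 at 0.646. For CRY1 it was TBK1 at 0.623, for BMAL1 ZNF660 at 0.588 and for PER1 KIF12 at 0.560, each over the 121 lists.

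**Figure D5:**
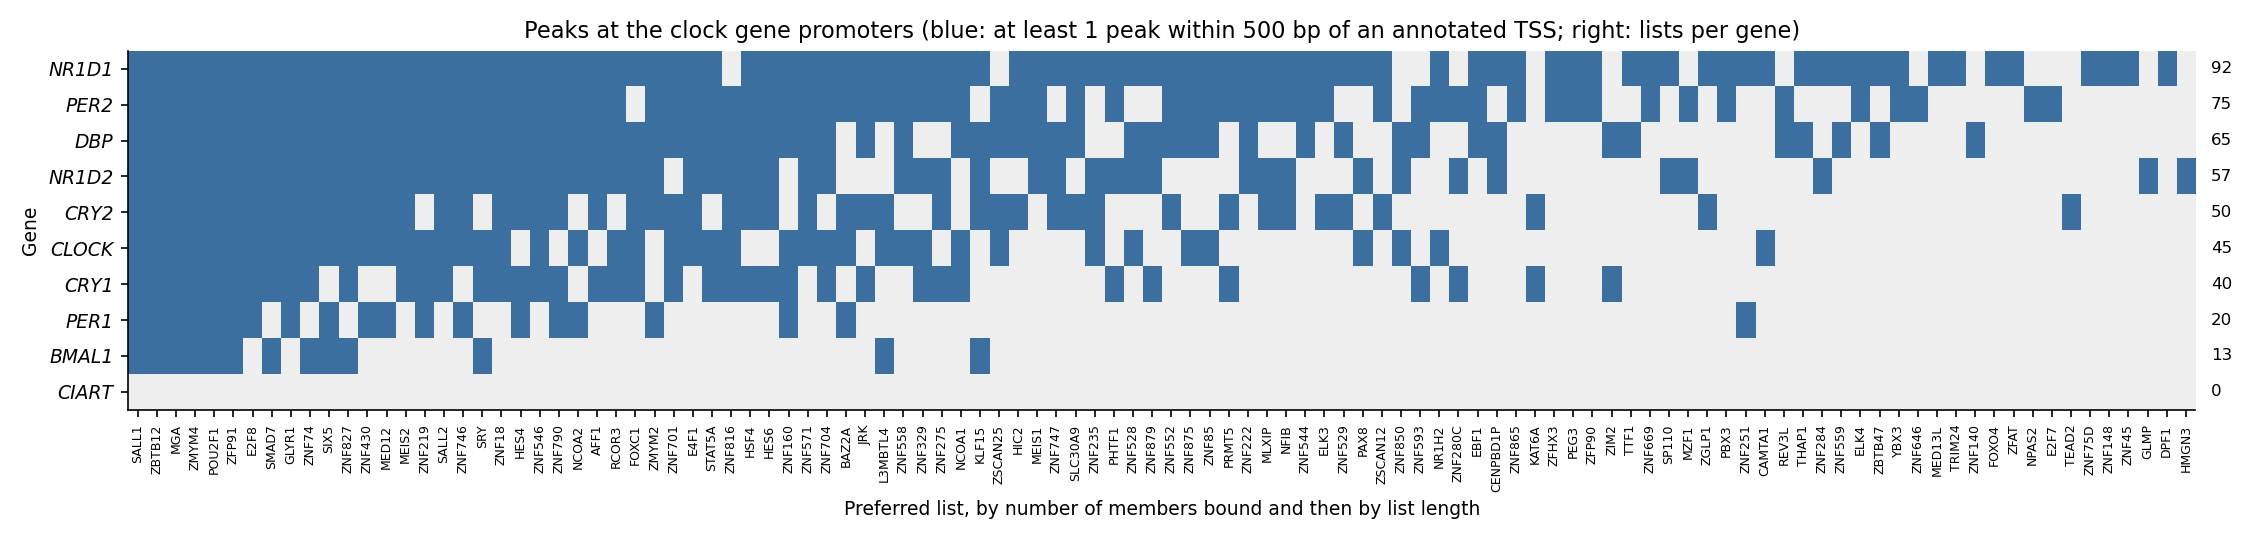
Clock genes (rows, by number of lists) against the 108 preferred lists with at least 1 clock promoter peak (columns, by number of clock promoters and then by length); blue marks a peak within 500 bp of an annotated TSS and the numbers at the right count the lists. All lists at BMAL1 and PER1 recur at NR1D1, which holds 92 of the 121, and the CIART row is empty.

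TF and non-TF lists were compared at each promoter with Fisher's exact test, two-sided, with Benjamini-Hochberg adjustment over the 14599 genes with a list. At an adjusted p under 0.05 the test called 0 of the 9 clock genes tested, against a background of 0% of all genes; at an unadjusted p under 0.05 it called 0 of the 9 and 364 of all genes. The widest gap was at CRY1, with 8 of 15 non-TF lists (53.3%) and 32 of 106 TF lists (30.2%), an exact unadjusted p of 0.0858 and an adjusted p of 1. At NR1D1 the shares were 73.3% and 76.4%. The non-TF lists were the longer, with a median of 10849 peaks against 8496.5, and the part of length in these shares was not tested.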

How the data were processed

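FLAG-tagged DAPs were measured by ChIP-seq in HepG2, and the authors made each list with the ENCODE pipeline as peaks that pass an irreproducible discovery rate (IDR) threshold on hg38. The aligner and the peak caller are not stated in what was used here. The deposited score of a peak runs from 540 to 1000 and follows the IDR. The deposited signal is an enrichment over input that is not scaled between lists, so it was used only to rank peaks within a list. The deposited q column holds negative values in 43 lists, was read as a score of unknown scale and was not used. Replicates were combined by the authors and are not listed apart, so no spread between replicates can be given, and reads per library are unknown. Whether samples came from separate cultures is not stated. No column of values in the lists was left unmapped.

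Preferred status and the split into TF and non-TF DAPs came from the labels and the study's supplementary table. Start sites and gene bodies came from GENCODE 44 and sequences from the hg38 reference, which no peak exceeds. A peak counted when any base of it overlapped the window. Overlapping or touching central 100 bp of peaks were joined into regions. Motifs were searched by exact letters on both strands: E-box CACGTG, E'-box CACGTT, D-box TTATGTAA or TTATGCAA, ROR element TAGGTCA and CRE TGACGTCA. For the ROR element, TAGGTCA is only a part of the full site, and the bases next to it were not searched.

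The genes are picked by name alone, but this set of genes, the lists and the motifs were chosen with earlier results of these data known. All 10 genes were named, with every list that had a promoter peak, the bHLH, nuclear receptor and coactivator lists, peaks within the first 1% of their list, the most bound regions, and the most similar gene. Regions beyond the most bound one of a gene, the lists nearest the NPAS2 summit, the stretches printed, the ranks over all genes and the nearest peaks were chosen after the values were seen. Fisher's exact test used scipy 1.17.1, with Python 3.11.15, numpy 2.4.6 and pandas 2.3.3. In a test on simulated data with 10000 genes, 200 with a planted difference of TF and non-TF lists, 100% were recovered with 3 false calls. The planted difference was far wider than that at any clock gene. This recovery therefore checks the code and does not show the power of the test at differences such as that at CRY1. Overlaps matched a brute-force count in all 900 pairs. Alternatives changed the window, the start sites, the part of a peak, the IDR, the peaks per list and the lists used. Some items are not reported here. Expression, chromatin accessibility and histone marks were not analysed here.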

Additional observations from a re-analysis of the deposited data

Results flagged for a closer look

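The 6 non-preferred lists were outside every comparison, and 5 of them had peaks at clock promoters. EP300, a histone acetyltransferase that marks active enhancers, had peaks at 7 (CLOCK, PER1, PER2, CRY1, NR1D1, NR1D2 and DBP), against 20.8% of all protein-coding genes. TSC22D2 had peaks at 6 (CLOCK, PER2, CRY2, NR1D1, NR1D2 and DBP), against 26.8%, and ZNF431 at 4 (CLOCK, PER2, NR1D1 and DBP), against 30.3%. TUT4 had them at 3 (PER2, NR1D1 and DBP), against 3398 of the 20033 genes, and ZZZ3 at 3 (PER2, CRY2 and NR1D1), against 27.4%. All 5 had a peak at PER2 and at NR1D1. GPBP1L1, with 73 peaks, had none. None of these lists had a peak at a start site of BMAL1 or CIART.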

How the results depend on the processing

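No paired analysis was possible because each DAP has 1 list and no replicate. Of the 38 recomputed summary values, 33 stayed within 1.5 times the reported one and 5 moved. With an IDR of at most 0.01 the median fell from 47.5 to 29 lists (all genes 9), and 5 promoters stayed at 25% of the lists. With the 500 strongest peaks per list the median was 0.5 (all genes 0), 1 promoter, NR1D1, stayed at 25%, and NPAS2 was at 0 clock promoters and at 0 clock genes with the body included. With canonical start sites alone the median was 34.5 (all genes 15) and 5 promoters stayed at 25%. NR1D2 then fell from 57 to 17 lists, the only gene to move by over 1.5 times. Of the 70 values for single genes, 53 stayed within that range. The other 17 were NR1D2 with canonical sites, 7 with the stricter IDR and 9 with the strongest peaks. NR1D1 had the most lists and CIART had 0 under every alternative. Without the 5 longest lists the median was 42.5 (all genes 18), PER1 had 15 lists and BMAL1 had 8, where 13 were reported. The TF test called 0 clock genes under each alternative. Depth is unknown, so a gene without a peak is a gene without a peak past the authors' threshold.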

Other observations

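Other genes of the clock were counted from a list fixed by role, and 23 of the 24 had a promoter list, with a median of 37 lists and a range from 0 to 74. Of these, 14 were at or above 25% of the lists, against 42.1% of all protein-coding genes. Among activators, NPAS2 itself had 29 lists and BMAL2 had 19. Among inhibitors and partners, TIMELESS had 67 lists and PER3, the remaining period gene, had 6. In the stabilising loop BHLHE40, which encodes DEC1, had 52 lists and the brain-enriched receptor gene RORB had 0, while RORA had 27 over all start sites and 0 at its canonical one. HLF, a PAR bZIP relative of DBP, had 74 lists and TEF had 39, with 36 and 27 at the canonical start site. Of the genes for kinases and protein turnover, CSNK1D and GSK3B had 69 lists each over all start sites, but 65 and 30 at the canonical one. Of the output genes, KLF10 had 67 lists and PPARA had 28.

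NPAS2 had a promoter peak at 1 of these 24 genes, TEF, against 10.8% of all genes. At a TSS or in the body it had peaks at 4: NPAS2, TEF, HLF and CSNK1D, against 13.8%. Over the 10 core genes and these 24, the PER genes ranged from 6 lists at PER3 to 20 at PER1 and 75 at PER2, and the PAR bZIP genes from 39 at TEF to 65 at DBP and 74 at HLF. These counts have no replicate and were not tested.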
